A study of Arabidopsis thaliana with 76 samples.

Results

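Light harvesting and photosystem subunits that are encoded in the nucleus were followed as a module of 52 Arabidopsis genes out of 33557 with values in these transcriptomes. The genes were listed by locus identifier and by known function and not by a measured value, although earlier results of these data were known. They comprise 9 genes of the major antenna of photosystem II (LHCII), 5 genes of its minor antenna, 6 LHCA genes of the photosystem I antenna, 12 photosystem I subunits, 11 photosystem II subunits, 6 electron carriers and 3 subunits of the ATP synthase. All 52 were measured in every one of the 76 libraries and all 52 passed the low-count filter of every test.

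Each library was made from 25 pooled seedlings (accession Col0 or mutants compared with it). The time courses and starch mutants were grown in short days of 8 hr light and 16 hr dark. The labels of the liquid medium libraries do not give the day length. Replicates are separate libraries whose origin from separate sowings is not given, so p-values measure the spread between these libraries only. The test of 27°C against 22°C over the day has no replicates, and its error is described with its results. Time is given as Zeitgeber time (ZT), in hours from lights on. Seedlings of ss4-1, an insertion mutant of STARCH SYNTHASE 4 (SS4), and wild type (WT) were sampled at 17°C at 8 times, ZT−4 and ZT0 before lights on, ZT1, ZT2, ZT4 and ZT8 in the light, then ZT12 and ZT16 in the night (2 libraries each), and WT at 22°C and 27°C at the same times (1 library each). The 3 starch mutants were pgm (no plastid phosphoglucomutase), ss3/ss4 (no starch synthases 3 and 4) and ss3/ss4/pgm (all of these). They were sampled at 17°C at ZT0 and ZT2 (2 libraries each) and share the WT libraries of these times. WT seedlings in liquid medium at 22°C or 27°C received DCMU (30 μM), DBMIB (50 μM) or the ethanol mock at ZT−1, or were left untreated, and were collected at ZT1 (2 libraries each). DCMU blocks electron transfer from photosystem II into the plastoquinone pool and DBMIB blocks its oxidation by cytochrome b6f.

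The light reactions convert absorbed light into reducing power and ATP at the thylakoid membrane. Their complexes are mosaics: the reaction center cores are encoded in the chloroplast genome, whereas the antenna proteins and many peripheral subunits are made in the cytosol from nuclear genes and imported. LHCB and LHCA genes are classical targets of light, of the circadian clock and of retrograde signals, by which the state of the chloroplast alters nuclear transcription, with the GOLDEN2-LIKE factors GLK1 and GLK2 as known activators.

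Among the libraries with counts, the total lay between 3204754 and 19679912 counts (median 9800430). The 52 genes made up 5.33% to 12.01% of the summed transcript level (TPM, reads corrected for transcript length and scaled to the same total in each library) at 17°C, 3.31% to 9.98% at 22°C, 3.58% to 8.41% at 27°C and 3.90% to 9.51% in liquid medium. The shoot markers RBCS1A, RBCS3B and CA1 together reached 10464 to 23141 TPM in the seedlings at 17°C. The targeted genes PGM and SS3 fell in their mutants: PGM was at 4.32 to 12.9 TPM in pgm and 5.77 to 12.97 TPM in ss3/ss4/pgm, against 50.2 to 185 TPM in WT, and SS3 at 5.88 to 7.61 TPM in ss3/ss4 and 5.33 to 7.17 TPM in ss3/ss4/pgm, against 19.3 to 34.2 TPM in WT. SS4 was at 14.5 to 44.3 TPM in ss4-1 and 14.0 to 60.6 TPM in WT. Its transcript therefore does not check the label, and these are the libraries labelled ss4-1. SS4 was at 14.0 to 18.8 TPM in ss3/ss4 and 7.74 to 10.2 TPM in ss3/ss4/pgm. In pgm, where SS4 was not targeted, it was at 6.23 to 10.3 TPM. The SS4 transcript thus does not check the loss of SS4 in ss3/ss4 and ss3/ss4/pgm either. The 2 replicates of each inhibitor stand apart from each other, as described with those results.

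The LHCB2 genes had the largest changes over the day, and the trough of LHCB1.1 depended on the temperature series, as described below. PSBQ2 was among the members that ordered the starch mutants without overlap at ZT0, and FNR2 peaked when the antenna genes fell. The upstream sequences of these 6 members are shown because they carry these contrasts. Each is the 250 bases before the RefSeq transcript start, from genome TAIR10.1, written 5′ to 3′ on the strand of the gene, with motif matches in capitals: CACGTG (G-box), GATAAG (I-box), AAAATATCT (evening element) and AAAAATCT or AACAATCT (sites bound by the clock factor CCA1), each searched on both strands, none holding another. LHCB2.1 is AT2G05100 and the window is at chr2:1824481-1824730 on the minus strand, with 1 I-box.
LHCB2.1: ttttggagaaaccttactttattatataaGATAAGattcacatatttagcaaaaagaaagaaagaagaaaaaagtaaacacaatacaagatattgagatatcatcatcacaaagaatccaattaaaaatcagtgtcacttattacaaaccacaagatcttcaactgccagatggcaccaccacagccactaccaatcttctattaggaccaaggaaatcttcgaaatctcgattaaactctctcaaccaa
LHCB2.2 is AT2G05070 and the window is at chr2:1800473-1800722 on the minus strand, with none of these motifs.
LHCB2.2: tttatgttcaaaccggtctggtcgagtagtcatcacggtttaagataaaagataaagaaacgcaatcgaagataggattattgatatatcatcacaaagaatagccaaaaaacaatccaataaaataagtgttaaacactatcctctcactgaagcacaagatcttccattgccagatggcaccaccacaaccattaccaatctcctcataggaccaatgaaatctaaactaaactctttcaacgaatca
LHCB2.3 is AT3G27690 and the window is at chr3:10255656-10255905 on the plus strand, with 1 G-box.
LHCB2.3: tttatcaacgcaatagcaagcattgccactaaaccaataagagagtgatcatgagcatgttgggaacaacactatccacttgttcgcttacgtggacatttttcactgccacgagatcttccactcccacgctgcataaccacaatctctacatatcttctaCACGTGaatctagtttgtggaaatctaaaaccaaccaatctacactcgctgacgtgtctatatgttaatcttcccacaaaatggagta
LHCB1.1 is AT1G29920 and the window is at chr1:10475970-10476219 on the minus strand, with 1 CCA1 site.
LHCB1.1: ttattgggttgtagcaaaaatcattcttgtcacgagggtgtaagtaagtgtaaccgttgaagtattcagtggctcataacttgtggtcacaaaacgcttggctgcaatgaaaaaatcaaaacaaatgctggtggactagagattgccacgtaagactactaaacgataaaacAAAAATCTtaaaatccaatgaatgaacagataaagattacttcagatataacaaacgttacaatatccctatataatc
PSBQ2 is AT4G05180 and the window is at chr4:2673244-2673493 on the minus strand, with 2 G-box matches and 1 I-box.
PSBQ2: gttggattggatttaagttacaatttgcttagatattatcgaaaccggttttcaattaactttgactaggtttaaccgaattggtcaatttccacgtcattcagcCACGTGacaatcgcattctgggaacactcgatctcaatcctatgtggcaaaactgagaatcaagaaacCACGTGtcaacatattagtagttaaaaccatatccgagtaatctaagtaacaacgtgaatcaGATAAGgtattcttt
FNR2 is AT1G20020 and the window is at chr1:6942375-6942624 on the plus strand, with none of these motifs.
FNR2: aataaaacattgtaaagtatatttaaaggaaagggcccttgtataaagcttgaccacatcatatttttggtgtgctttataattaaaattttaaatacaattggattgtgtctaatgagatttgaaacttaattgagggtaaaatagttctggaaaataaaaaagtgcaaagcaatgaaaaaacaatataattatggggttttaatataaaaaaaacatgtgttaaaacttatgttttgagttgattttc

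Over the window of 250 bases before to 50 after the start, 16 of the 52 promoters (30.8%) held a G-box, against 7.68% of all 27443 promoters, and 24 (46.2%) held an I-box, against 14.6% of all. The evening element was in 2 members (3.85%, against 2.82% of all) and a CCA1 site in 7 (13.5%, against 9.93%). The G-box matches lay in 7 of 11 photosystem II genes, 4 of 12 photosystem I genes and 2 of 5 minor antenna genes, but in 1 of 9 LHCII genes and 0 of 6 electron carriers. The I-box share depended on the window and was 25.0% of members, against 12.3% of all promoters, when the 50 bases after the start were left out. A match is a run of letters and was not tested as a binding site.

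In WT at 17°C, LHCII genes were among the most abundant members per transcript length. LHCB1 proteins form the bulk of the LHCII trimer, and LHCB1.3 ranged over the 16 libraries between 4766 and 8539 TPM (median 6496), LHCB1.2 between 2669 and 4078 TPM (median 3495), LHCB1.1 between 1330 and 5366 TPM (median 3081), LHCB1.5 between 787 and 3159 TPM (median 2454) and LHCB1.4 between 834 and 3081 TPM (median 1564). LHCB2 proteins, which are phosphorylated when LHCII moves between photosystems, had far wider ranges: LHCB2.1 20.1 to 2242 TPM (median 1334), LHCB2.2 14.8 to 2174 TPM (median 1251) and LHCB2.3 13.1 to 1417 TPM (median 670). LHCB3, the third trimer subunit, was at 564 to 2989 TPM (median 2410). The lowest library of each LHCB2 gene was thus at or under 20.1 TPM, whereas that of each LHCB1 gene was at or above 787 TPM.

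Minor antenna genes spanned more than 2 orders of magnitude in level. LHCB5 (CP26) was at 1284 to 2820 TPM (median 2394), LHCB6 (CP24) at 504 to 2740 TPM (median 2004), LHCB4.1 and LHCB4.2 (CP29) at 1171 to 2327 TPM (median 1910) and 275 to 1972 TPM (median 1076), whereas LHCB4.3, the third CP29 gene, was at 4.77 to 17.6 TPM (median 10.3). Among the LHCA genes the 4 that build the photosystem I antenna belt had medians of 2210 (LHCA1), 1735 (LHCA2), 2140 (LHCA3) and 2573 TPM (LHCA4). LHCA5 and LHCA6, which link photosystem I to the NDH complex, were lower, with medians of 296 and 137 TPM and ranges of 211 to 342 and 92.1 to 170 TPM.

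Several subunits are encoded by pairs of genes, and the share of the second gene in the summed TPM of its pair moved with the series. PSAD2, of the subunit that docks ferredoxin on photosystem I, took 14.3% to 30.6% of the PSAD pair in WT at 17°C, 23.1% to 44.8% at 22°C and 28.2% to 47.5% at 27°C. PSAE2, of the other ferredoxin-docking subunit, took 24.8% to 35.5%, 29.9% to 44.5% and 28.9% to 42.7% at the same temperatures, and PSAH2, which helps dock LHCII, took 39.8% to 58.1%, 42.5% to 59.6% and 51.5% to 60.8%. The ranges of the pairs overlapped between temperatures in each case. For the oxygen-evolving complex, PSBO2 took 26.8% to 31.9% of the PSBO pair and PSBQ2 43.3% to 53.9% of the PSBQ pair at 17°C. PETE2 supplied 87.2% to 94.0% of plastocyanin transcripts at 17°C and 79.4% to 89.0% at 22°C. FNR2, of the enzyme that passes electrons from ferredoxin to NADP, moved between 44.2% and 68.8% of the FNR pair at 17°C and between 32.9% and 62.9% at 27°C, and was the member of a pair whose share had the widest range at 17°C. Each 22°C and 27°C range rests on 8 libraries, and these tables and those at 17°C were normalized separately.

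The other subunits had median levels between those of PETE1 (219 TPM) and PSBR (2771 TPM). In photosystem I the median TPM in WT at 17°C was 1527 for PSAD1, 492 for PSAD2, 1990 for PSAE1, 833 for PSAE2, 1997 for PSAF (the plastocyanin-docking subunit), 2439 for PSAG, 1607 for PSAH1, 1973 for PSAH2, 1471 for PSAK, 1971 for PSAL, 1811 for PSAN and 2368 for PSAO. In photosystem II it was 2210 for PSBO1, 954 for PSBO2, 2200 for PSBP1, 1436 for PSBQ1, 1426 for PSBQ2, 2771 for PSBR, 1381 for PSBS (the sensor of lumen acidity in energy dissipation), 1501 for PSBW, 2371 for PSBX, 950 for PSBY and 1769 for PSBTN. Between the photosystems, PETC (the Rieske protein) was at a median of 1070 TPM, PETE1 at 219, PETE2 at 2314, FD2 (ferredoxin) at 1545, FNR1 at 513 and FNR2 at 545 TPM. The ATP synthase subunits ATPC1, ATPD and ATPG had medians of 768, 1084 and 910 TPM.

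The first question of the time course was how the module changes over the day. At 17°C, 49 of the 52 members changed over the 8 times in WT (edgeR quasi-likelihood F-test, Benjamini-Hochberg adjusted p under 0.05), beside 68.6% of all 20692 genes tested. The 3 that did not pass were PSBX (adjusted p = 0.058), PSBTN (0.081) and ATPC1 (0.18). Most members were highest near dawn and lowest in the night: 31 peaked at ZT1, where 7.67% of all genes that reached 1 TPM did, and 38 had their trough at ZT16, where 10.5% of all genes did.

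**Figure D1:**
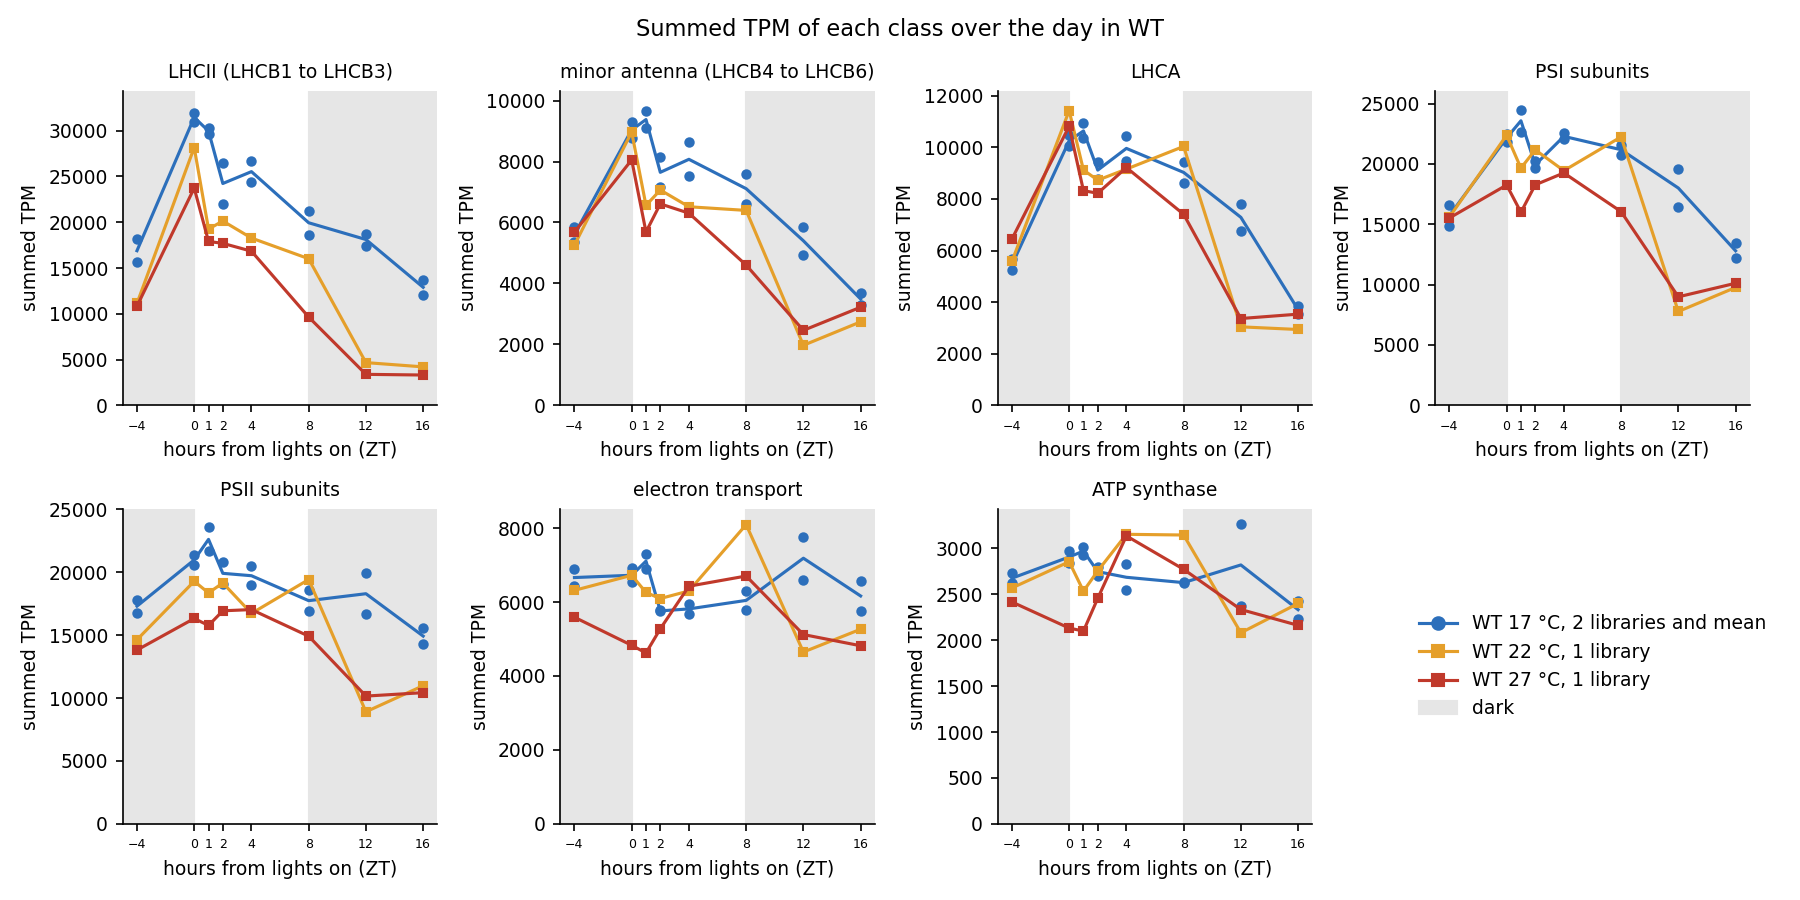
Summed TPM of each class against ZT (hours) in WT at 17°C (points for 2 libraries, line through their mean), 22°C and 27°C (1 library each), with the dark shaded. LHCII was highest at ZT0 in all 3 series and, at ZT12, stood at 17457 and 18764 TPM at 17°C, at 4667 TPM at 22°C and at 3384 TPM at 27°C.

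The LHCB2 genes had the largest swings. In WT at 17°C, the 2 LHCB2.1 libraries held 610 with 581 TPM at ZT−4 before dawn, 2019 with 2059 TPM at ZT0, 2144 with 2242 TPM at ZT1, 1808 with 1592 TPM at ZT2, 1767 with 1814 TPM at ZT4, 1077 with 915 TPM at ZT8, 80.3 with 65.0 TPM at ZT12 and 33.3 with 20.1 TPM at ZT16. Its level was therefore high while the lights were on and lowest at ZT16, 8 hours into the night, and it was already at its morning level before lights on. The ratio of the highest to the lowest mean was 82.2 for LHCB2.1, 117 for LHCB2.2 and 85.8 for LHCB2.3 (adjusted p = 9.1e-18, 6.5e-18 and 8.6e-20 for a change over the day), and these were the only members over 10-fold, where 1.74% of the genes at 1 TPM or more throughout were. LHCB2.1 and LHCB2.2 share 9.87% and 12.4% of their 100-base windows exactly, so part of their reads cannot be told apart, whereas LHCB2.3 shares none with another member.

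The LHCB1 genes kept a much higher floor at 17°C. LHCB1.1 fell to 1330 and 1394 TPM at ZT16, against 4824 and 5366 TPM at ZT0, a ratio of means of 3.74, and LHCB1.3 and LHCB1.2 varied 1.65-fold and 1.34-fold over the day. By class, the median ratio of highest to lowest mean at 17°C was 3.83 in LHCII, 2.08 in the minor antenna, 2.39 in LHCA, 1.85 in photosystem I, 1.55 in photosystem II, 1.57 in the electron carriers and 1.31 in ATP synthase. The median over the module was 1.83, and over the genes at 1 TPM or more throughout it was 1.75. Within the minor antenna LHCB4.2 varied 6.19-fold and LHCB6 4.73-fold, while LHCB4.1 varied 1.84-fold, and within LHCA the antenna genes LHCA4 and LHCA1 varied 4.57-fold and 4.15-fold, while LHCA5 varied 1.35-fold.

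A few members ran against the rest. FNR2 was at 426 and 514 TPM at ZT0, 368 and 402 at ZT2, 1111 and 1119 at ZT8 and 1054 and 1383 at ZT12, and so was high when the LHCB2 genes had fallen. LHCB4.3 was lowest at ZT0 (7.51 and 6.24 TPM) and had its highest mean at ZT12 (9.71 and 17.6 TPM), with replicates that overlap those of most other times. PSBS was highest at ZT2, where it was at 1459 and 1323 CPM (counts scaled to a common library size with TMM factors), against 920 and 917 CPM at ZT0.

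Between single times, 1 member rose and 6 fell at ZT2 against ZT0 in WT at 17°C, beside 15.9% of all genes higher and 15.9% lower. The rise was PSBS (log2 fold change 0.60, SE 0.13, adjusted p = 0.00076 by edgeR). The falls were LHCB1.4 (−0.99), PETE1 (−0.92), PSAD2 (−0.76), LHCB4.2 (−0.76), LHCB2.3 (−0.62) and LHCB1.1 (−0.55). By ZT8, 1 member was higher than at ZT0 (21.9% of all genes were) and 16 were lower (21.8%). FNR2 rose by 1.24 (SE 0.16) on the log2 scale, and LHCB2.3 (−1.55), LHCB4.2 (−1.23), LHCB2.1 (−1.01) and LHCB2.2 (−0.95) had the largest falls. The count of falls at ZT8 was 7 without WT ZT8 replicate 2 and 8 without WT ZT0 replicate 2. The hours in the light and the time of day cannot be told apart in these samples.

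LHCB1.1 was at 40.5 TPM at ZT16 at 22°C and at 28.6 TPM at ZT16 at 27°C, and at ZT12 it was at 2594 and 3023 TPM at 17°C, 169 TPM at 22°C and 17.2 TPM at 27°C. At ZT0 it was at 4824 and 5366 TPM at 17°C, 3854 TPM at 22°C and 2807 TPM at 27°C. The highest level over the lowest was thus 3.74-fold at 17°C, 95.1-fold at 22°C and 163-fold at 27°C. The 22°C and 27°C ratios are of single libraries and the 17°C ratio is of means of 2 from tables normalized separately, so no test of the difference was run. LHCB2.1 reached 7.28 TPM at ZT12 at 22°C and 17.7 TPM at 27°C, with ratios of 326 and 109, and LHCB2.2 and LHCB2.3 had ratios of 248 and 303 at 22°C and 99.9 and 161 at 27°C.

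**Figure D2:**
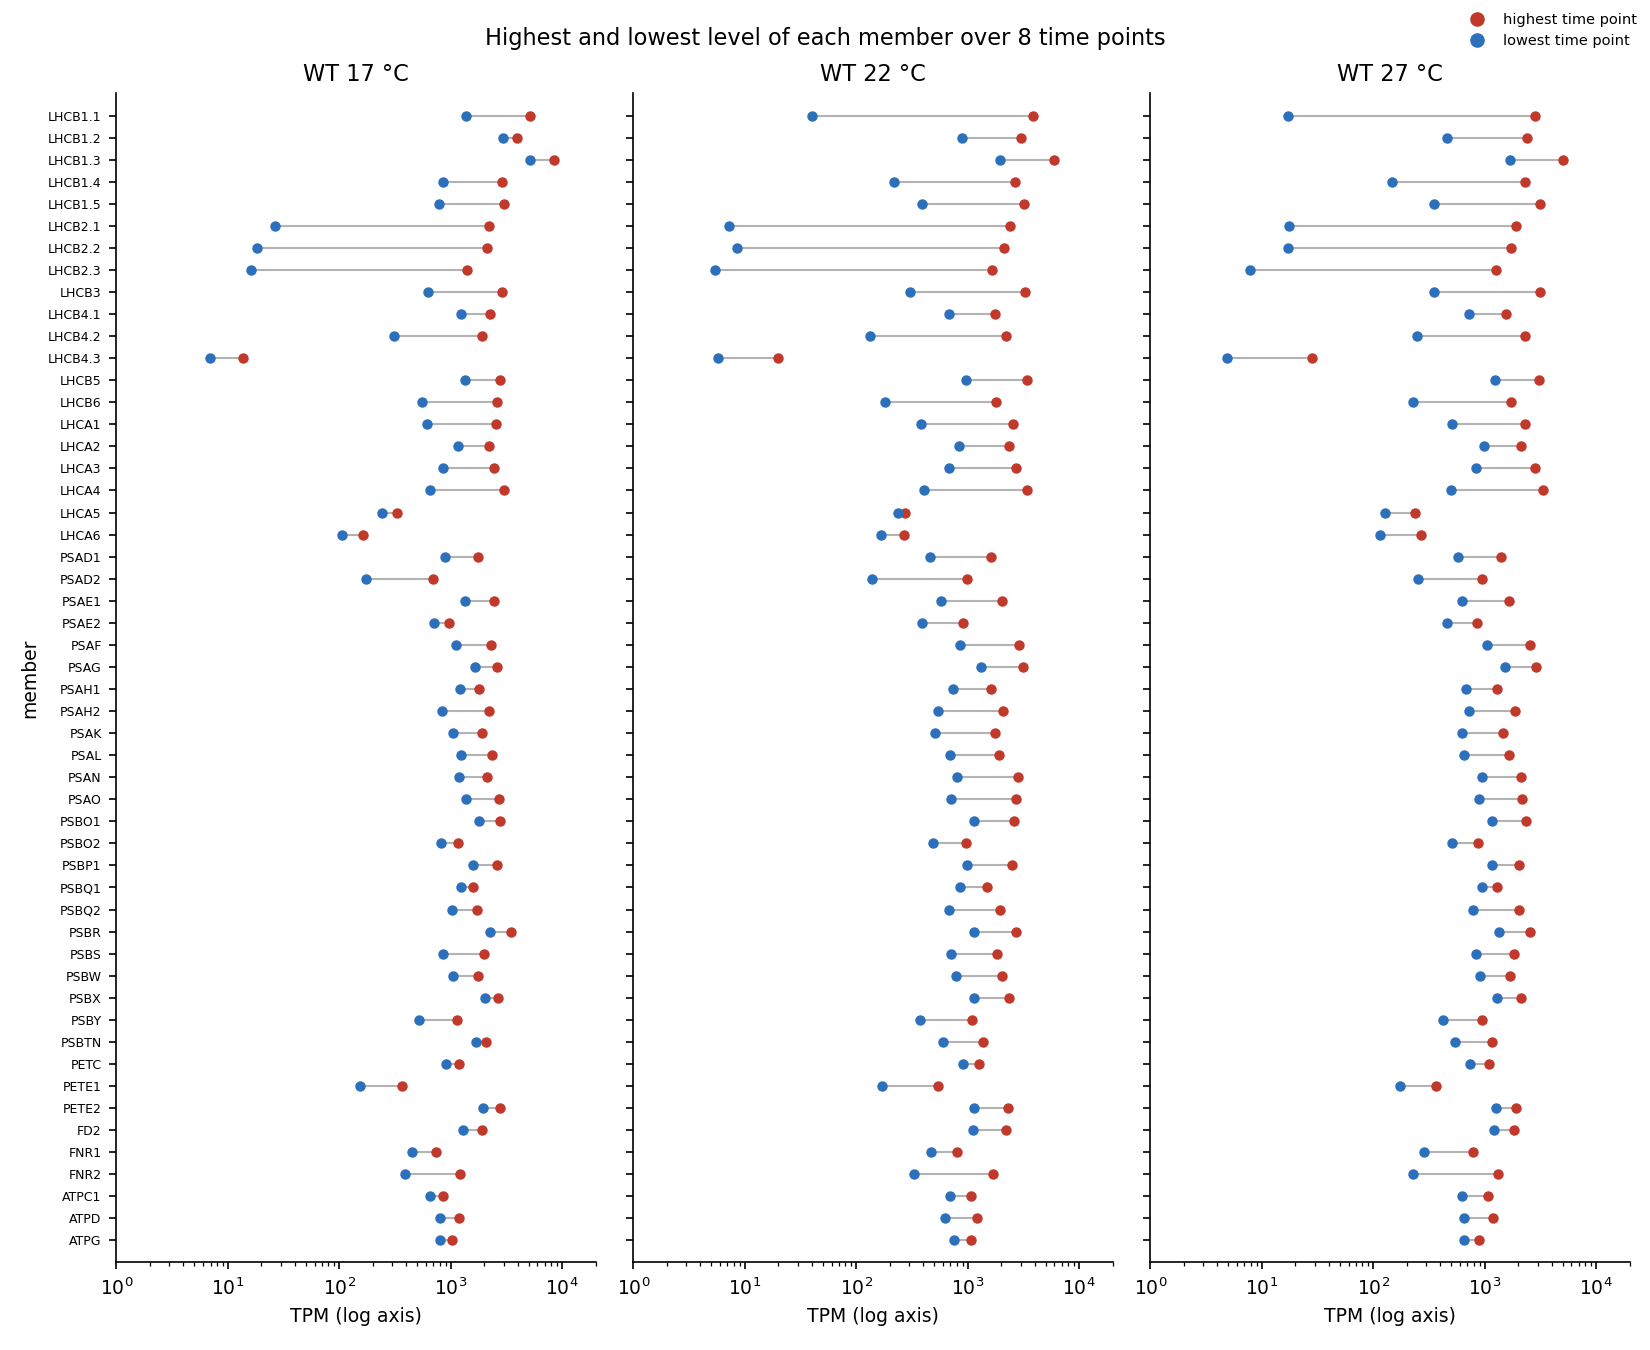
Highest (red) and lowest (blue) level over the 8 times in TPM (log axis) for each of the 52 members, 1 row per gene, in WT at 17°C (means of 2 libraries), 22°C and 27°C (1 library each). The rows of the LHCB2 genes are the longest at 17°C, and that of LHCB1.1 lengthens from 3.74-fold at 17°C to 95.1-fold at 22°C and 163-fold at 27°C.

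More than 2-fold variation over the day was seen in 20 of 52 members at 17°C (36.8% of the genes at 1 TPM or more throughout), 42 at 22°C (57.8%) and 36 at 27°C (57.2%). The median ratio was 3.01 at 22°C and 2.37 at 27°C, and the LHCII medians were 12.3 and 15.7. LHCB1.4 varied 12.3-fold and 15.7-fold, LHCB3 10.9-fold and 8.88-fold, LHCB4.2 16.8-fold and 9.42-fold, LHCB6 9.77-fold and 7.53-fold and LHCA4 8.42-fold and 6.71-fold at 22°C and 27°C. The trough moved too: 37 members were lowest at ZT12 at 22°C, where 3.06% of all genes were, and 30 at 27°C, where 4.32% were, and LHCB4.3, PSBS and FNR2 peaked at ZT16, ZT2 and ZT8 in both series. At 27°C, 19 members peaked at ZT0 and 14 at ZT4, where 20.3% and 8.08% of all genes did.

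Whether seedlings at 27°C differed from those at 22°C over the whole day was tested with limma on log2(TPM + 1), with the 8 times as blocks. With 1 library per time and temperature, the error is the change of the difference between times and not a spread of replicates. No member was higher and 7 were lower at 27°C, beside 20.6% of all 19956 genes higher and 8.44% lower, and 1 member was higher and 15 lower at an unadjusted p under 0.05. LHCB1.4 fell by 0.55 on the log2 scale (SE 0.10, adjusted p = 0.0038, lower at 8 of 8 times), LHCB1.2 by 0.46 (SE 0.09, adjusted p = 0.0059, 8 of 8) and LHCA5 by 0.42 (SE 0.10, adjusted p = 0.0098, 8 of 8). The others were PSBTN (−0.32), FNR2 (−0.30), PSAH1 (−0.24) and PSAL (−0.21). LHCB1.1 had the largest difference, −0.73, and was lower at 8 of 8 times but did not pass (SE 0.30, adjusted p = 0.085). Without ZT12, 18 members were lower. Among the markers, HSP70 and HSP101 were higher at 27°C at 8 of 8 times (HSP70 at 1738 TPM at 27°C, against 569.8 TPM at 22°C, at ZT1), ATML1 was higher at 6 of 8 and RBCS1A lower at 6 of 8, and their part in the result was not tested. At single times, with no test, all 9 LHCII genes were lower at 27°C at ZT0 (median log2 difference −0.29) and at ZT8 (−0.72). Over the module, 49 of 52 were lower at ZT0 (39.5% of all genes were), 50 at ZT8 (26.7%) and 12 at ZT12 (58.2%).

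The next comparison asked whether loss of SS4 alters the module. Averaged over the 8 times, 8 members were higher and 1 was lower in the libraries labelled ss4-1, beside 6.66% of all genes higher and 7.88% lower. The rises were small: PSAN 0.23, PSBR 0.21, PSAE2 0.20, LHCA1 0.19, PSAK 0.18, LHCA2 0.16, LHCA4 0.16 and PETE1 0.16 on the log2 scale. The fall was LHCB2.1 (−0.25, SE 0.06, adjusted p = 0.013 by edgeR). Over all 52 members 46 differences were above 0, with a median of 0.085, and the median of all genes was 0.00. The count of higher members was 13 without WT ZT12 replicate 2.

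The difference between ss4-1 and WT depended on the time of day for 3 members, where 0.604% of all genes passed this test. These were the 3 LHCB2 genes: LHCB2.1 (adjusted p = 0.00048), LHCB2.2 (0.015) and LHCB2.3 (0.048). Without WT ZT12 replicate 1 the count was 9, and without ss4-1 ZT12 replicate 2 it was 1.

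At ZT12, 4 hours into the night, LHCB2.1 was at 21.4 and 18.8 CPM in ss4-1, against 68.1 and 57.0 CPM in WT (log2 fold change −1.64, SE 0.20, adjusted p = 0.00019). LHCB2.2 was at 30.5 and 23.3 CPM in ss4-1 and 72.3 and 64.0 CPM in WT (−1.35, adjusted p = 0.0035). LHCB2.3 was at 13.4 and 12.4 CPM in ss4-1 and 29.7 and 25.9 CPM in WT (−1.11, adjusted p = 0.0080). In all 3 genes every ss4-1 library lay below every WT library, and the difference was several times the gap between replicates. These were the only members that passed at this time, with 0 higher by edgeR, by DESeq2 or at an unadjusted p under 0.05, beside 0.981% of all genes higher and 2.01% lower, and 5 members had libraries that did not overlap and were lower, beside 19.5% of all genes. The count of lower members was 16 without WT ZT12 replicate 1 and 1 without ss4-1 ZT12 replicate 2, and with only ss4-1 and WT at ZT12 in the fit it was 0. The root marker EXPA7 was at 9.297 and 8.203 TPM in ss4-1 and 10.999 and 32.3 TPM in WT at ZT12. COBL9, another root marker, was at 2.45 and 1.81 TPM in ss4-1 and 2.72 and 5.47 TPM in WT. PLT1, also a root marker, was at 1.86 and 1.06 TPM in ss4-1 and 2.35 and 0.253 TPM in WT. WT replicate 2 thus stood apart in these markers, high in EXPA7 and COBL9 but low in PLT1. Their part in the result was not tested. At ZT16 LHCB2.1 was at 12.9 and 11.6 CPM in ss4-1 and 27.7 and 16.9 CPM in WT (−0.86, adjusted p = 0.17).

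**Figure D3:**
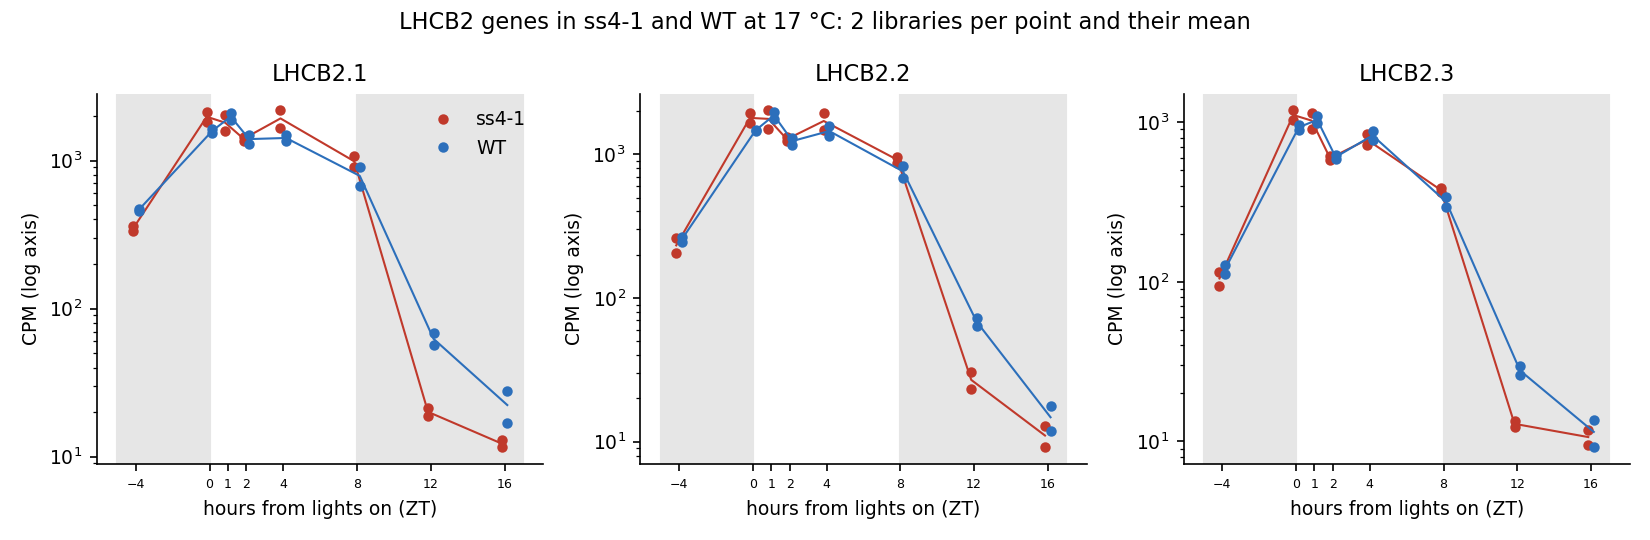
CPM (log axis, TMM scaling) of LHCB2.1, LHCB2.2 and LHCB2.3 against ZT (hours) at 17°C in each library of ss4-1 (red) and WT (blue), with lines through the means of 2 and the dark shaded. At ZT12 the ss4-1 points lie below those of WT in all 3 genes (21.4 and 18.8 CPM in ss4-1, against 68.1 and 57.0 CPM in WT, for LHCB2.1).

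At ZT4 the direction was the opposite. PSBR, a small photosystem II subunit near the oxygen-evolving complex, was at 2339 and 1984 CPM in ss4-1 and 1396 and 1431 CPM in WT (log2 fold change 0.61, SE 0.15, adjusted p = 0.024). PSAN, on the lumen side of photosystem I, was at 1463 and 1325 CPM in ss4-1 and 1010 and 823 CPM in WT (0.60, adjusted p = 0.032), and PSAE2 at 417 and 360 CPM in ss4-1 and 269 and 254 CPM in WT (0.57, adjusted p = 0.030). PSAO (0.51) and PSAK (0.50), 2 small photosystem I subunits, passed as well, so 5 members were higher and 0 lower, beside 2.88% and 2.54% of all genes. A further 26 members reached an unadjusted p under 0.05 in this direction, to make 31, and 0 did so in the other. Of all 20692 genes tested, 2619 were higher and 2448 lower at this threshold. DESeq2 called 18 higher and 0 lower. In 40 members both ss4-1 libraries were above both WT libraries, beside 25.1% of all genes. The 5 calls were lost when WT ZT4 replicate 2 or either ss4-1 ZT4 library was left out, with 0 members called in each case. With ss4-1 and WT at ZT4 alone in the fit 0 were called, and with no filter on low counts 20 were. Of the markers fixed for other cell types and heat, the shoot marker RBCS1A was at 10345 and 7792 TPM in ss4-1 and 6997 and 7712 TPM in WT at ZT4. The other shoot markers overlapped between the genotypes. RBCS3B was at 3979 and 3249 TPM in ss4-1 and 3161 and 3429 TPM in WT, and CA1 at 2276 and 1895 TPM in ss4-1 and 2052 and 1790 TPM in WT. The root marker EXPA7 was at 9.002 and 7.83 TPM in ss4-1 and 15.5 and 12.4 TPM in WT. COBL9, another root marker, was also lower, at 1.88 and 1.88 TPM in ss4-1 and 5.89 and 4.80 TPM in WT. PLT1, also of the root, overlapped, at 3.44 and 2.31 TPM in ss4-1 and 3.19 and 4.59 TPM in WT. The heat marker HSP70 was at 78.5 and 47.9 TPM in ss4-1 and 21.4 and 20.2 TPM in WT. Their part in the result was not tested.

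At ZT2 no member passed in either direction, beside 0.449% of all genes higher and 0.0822% lower. At an unadjusted p under 0.05, 4 members were higher and 0 lower, beside 851 and 655 of all 20692 genes, and DESeq2 called 0. PSAF was at 1271 and 1255 CPM in ss4-1 and 907 and 968 CPM in WT (0.43, adjusted p = 0.36), and LHCB4.3 at 12.8 and 16.2 CPM in ss4-1 and 8.66 and 9.66 CPM in WT (0.66, adjusted p = 0.65). Libraries did not overlap and were higher in ss4-1 for 28 members at ZT2 (20.3% of all genes), 44 at ZT0 (22.8%) and 38 at ZT8 (19.4%). At ZT−4, ZT0, ZT1, ZT8 and ZT16 edgeR called 0 members in either direction. The share of all genes called higher at these times was 0.029%, 0.00967%, 0.0483%, 0.00967% and 0.0193%, and the share called lower was 0.0193%, 0.0193%, 0.00483%, 0% and 0%. At an unadjusted p under 0.05, ZT0 and ZT8 had 7 members higher each and none lower, ZT−4 had 1 lower, ZT16 had 1 higher with 2 lower, and ZT1 had 0, while DESeq2 called 1, lower at ZT16. At this threshold 779, 576 and 786 of all 20692 genes were higher at ZT0, ZT8 and ZT16. Those lower were 789 at ZT−4 and 775 at ZT16.

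The starch mutants at ZT0 and ZT2 asked what loss of PGM, which ends starch synthesis at its first steps, does alone and on top of ss3/ss4. In pgm at ZT0, 38 members were higher and 2 lower than in WT, beside 28.1% and 28.9% of all genes, and at ZT2, 23 were higher and 1 lower, beside 19.4% and 21% of all genes. In ss3/ss4/pgm, 28 were higher and 5 lower at ZT0 (30.6% and 30.7% of all genes), and 30 higher and 0 lower at ZT2 (19.7% and 21.7%). In ss3/ss4, 2 were higher and 12 lower at ZT0 (30.4% and 28.1%), and 3 higher and 9 lower at ZT2 (26.6% and 27.4%). These comparisons share the WT libraries. No lower member at ZT2 in ss3/ss4/pgm passed, with 1 at an unadjusted p under 0.05 and 0 by DESeq2.

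The counts in pgm at ZT0 depend on the scaling. Without TMM factors the median of all genes was at −0.51 in pgm at ZT0, −0.15 in pgm at ZT2, −0.26 in ss3/ss4 at ZT0, −0.38 in ss3/ss4/pgm at ZT0 and −0.18 in ss3/ss4/pgm at ZT2, where it is near 0 with them. Scaled by library totals alone, 23 members were higher and 7 lower in pgm at ZT0, 8 higher and 9 lower in ss3/ss4/pgm at ZT0, and 0 higher and 24 lower in ss3/ss4 at ZT0. The median log2 fold change of the members was 0.73 with TMM and 0.27 without in pgm at ZT0, 0.44 and 0.095 in ss3/ss4/pgm at ZT0, and −0.035 and −0.32 in ss3/ss4 at ZT0. The module is described here relative to the bulk of the genes. As a share of TPM, the 52 genes made up 9.63% and 12.01% in pgm at ZT0, 7.29% and 8.46% in ss3/ss4 and 9.86% and 9.92% in ss3/ss4/pgm, against 10.15% and 10.55% in WT. Transcripts of the plastid genome took 0.593% to 10.8% of the counts in pgm and 0.446% to 9.34% in ss3/ss4/pgm (at or above 7.46% at ZT2 in both), 0.307% to 1.13% in ss3/ss4 and 0.516% to 0.784% in WT. The 3 shoot markers summed to 13090 to 23141 TPM in pgm, 10610 to 13713 TPM in ss3/ss4 and 14900 to 17158 TPM in ss3/ss4/pgm, against 12298 to 13839 TPM in WT. The 3 root markers (EXPA7, COBL9 and PLT1) summed to 3.12 to 11.5 TPM in pgm, 4.53 to 6.40 TPM in ss3/ss4 and 6.30 to 11.5 TPM in ss3/ss4/pgm, against 10.3 to 14.5 TPM in WT. The part of these shares and markers in the results was not tested.

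**Figure D4:**
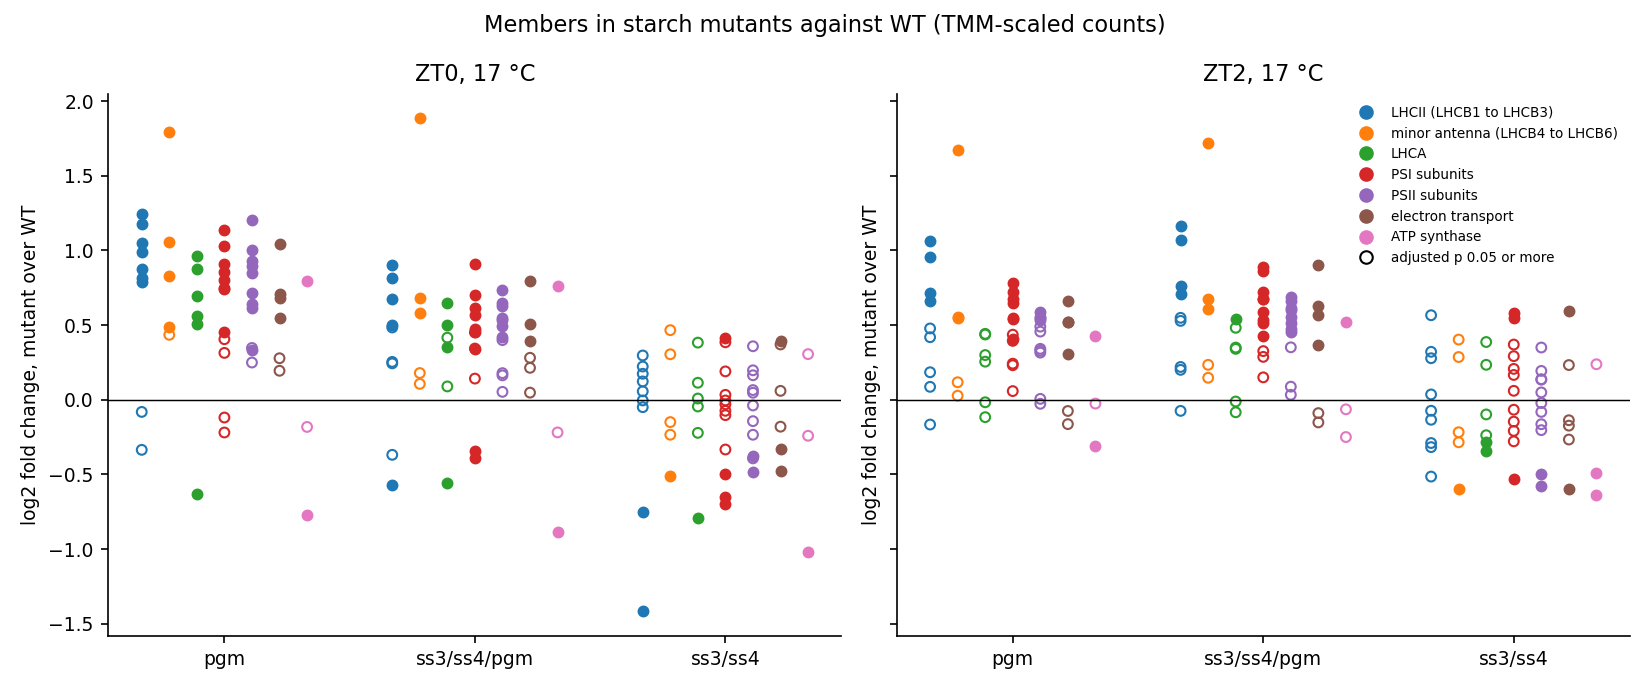
Log2 fold change of each of the 52 members against WT (TMM scaling) in pgm, ss3/ss4/pgm and ss3/ss4 at ZT0 and ZT2, colored by class, with filled points for members under an adjusted p of 0.05. The pgm and ss3/ss4/pgm points lie mostly above 0 (45 of 52 in each at ZT0) and those of ss3/ss4 on both sides (23 above).

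LHCII genes rose in pgm at ZT0 in 7 of 9 cases with a median of 0.88 on the log2 scale. LHCB1.4 was at 3285 and 5123 CPM in pgm, against 1629 and 1915 CPM in WT (log2 fold change 1.25, SE 0.26, adjusted p = 0.00042). LHCB2.3 was at 1306 and 1850 CPM in pgm, against 767 and 819 CPM in WT (0.99, adjusted p = 0.00082). The others were LHCB1.2, at 1632 and 1970 CPM in pgm, against 2258 and 2284 CPM in WT (−0.34, adjusted p = 0.21), and LHCB3, whose 1322 and 2057 CPM in pgm lay on both sides of the 1707 and 1864 CPM in WT (−0.08, adjusted p = 0.76). In ss3/ss4 LHCB1.2 was the member with the largest fall at ZT0: 807 and 897 CPM, against the same WT libraries (−1.41, SE 0.23, adjusted p = 2.7e-05), while its neighbours in the genome LHCB1.1 (3260 and 4159 CPM, against 3341 and 3794 CPM) and LHCB1.3 (4119 and 6411 CPM, against 4816 and 4856 CPM) did not pass. These 3 genes share 1.51% (LHCB1.2), 4.44% (LHCB1.1) and 3.27% (LHCB1.3) of their 100-base windows exactly with other members, so part of their reads cannot be told apart, and how such reads were counted is not given in the sources used here. In ss3/ss4/pgm it was at 1793 and 1272 CPM at ZT0 (−0.57, adjusted p = 0.033). By ZT2 it was at 1091 and 1809 CPM in ss3/ss4, against 2275 and 1864 CPM in WT, and did not pass (−0.51, adjusted p = 0.057).

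Of the minor antenna, 4 of 5 genes rose in pgm at ZT0 and 3 of 5 at ZT2. LHCB4.3 had the largest rise of all members against WT where PGM was missing. It was at 17.4 and 15.4 CPM in pgm at ZT0, against 5.26 and 4.41 CPM in WT (1.79, SE 0.25, adjusted p = 7.7e-06), and at 32.1 and 20.2 CPM in pgm at ZT2, against 7.58 and 8.42 CPM in WT (1.67, SE 0.21). In ss3/ss4/pgm it was at 16.9 and 18.6 CPM at ZT0 (1.89, SE 0.23) and 26.1 and 27.1 CPM at ZT2 (1.72, SE 0.21), against the same WT libraries. In ss3/ss4 it was at 5.98 and 7.57 CPM at ZT0 and 8.93 and 13.2 CPM at ZT2, so the pgm-containing libraries lay above all ss3/ss4 and WT libraries of their time. LHCB6 fell in ss3/ss4 at ZT2, to 792 and 1206 CPM, against 1661 and 1363 CPM in WT (−0.60, adjusted p = 0.017).

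In the photosystem I antenna and its core, 5 of 6 LHCA genes and 8 of 12 core subunits rose in pgm at ZT0, and at ZT2 0 of 6 and 7 of 12 did. PSAE2 was at 524 and 641 CPM in pgm at ZT0, against 258 and 270 CPM in WT (1.14, SE 0.17). At ZT2 in ss3/ss4 PSAE2 was at 270 and 390 CPM, against 224 and 227 CPM in WT (0.55, adjusted p = 0.0093), and PSAF at 1014 and 1441 CPM, against 794 and 844 CPM in WT (0.58, adjusted p = 0.012). The LHCA gene that fell was LHCA6, of the link to NDH. It was at 51.6 and 60.2 CPM in pgm, 52.1 and 46.3 CPM in ss3/ss4 and 64.8 and 52.03 CPM in ss3/ss4/pgm at ZT0, against 78.4 and 92.6 CPM in WT (−0.63, −0.79 and −0.56, each past the threshold). At ZT2 it was at 89.9 and 75.0 CPM in pgm and 78.5 and 87.1 CPM in ss3/ss4/pgm, on both sides of the 82.6 and 83.7 CPM in WT, and at 62.1 and 69.9 CPM in ss3/ss4 (−0.34, adjusted p = 0.029).

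Photosystem II subunits rose in pgm at ZT0 in 9 of 11 cases, among them PSBR (2510 and 3519 CPM in pgm, against 1257 and 1357 CPM in WT, 1.205, SE 0.20). PSBQ2, of the extrinsic oxygen-evolving complex, was at 1392 and 1808 CPM in pgm and 1378 and 1416 CPM in ss3/ss4/pgm, 744 and 861 CPM in ss3/ss4, and 984 and 1101 CPM in WT at ZT0. Its order was thus ss3/ss4, then WT, then the lines without PGM, with no overlap between these steps. Other members, among them LHCB4.2, PSAG and PSBTN, had the same order at ZT0. For LHCB4.2, ss3/ss4 was at 1130 and 1211 CPM, WT at 1244 and 1353 CPM, and the lines without PGM at 1857 to 2653 CPM. The share of all genes with this order was not counted. PSBQ1, the paralog of PSBQ2, fell in ss3/ss4 at ZT2 to 482 and 595 CPM, against 818 and 792 CPM in WT (−0.58, adjusted p = 0.0021). Among electron carriers, 4 of 6 rose in pgm at each time. FD2 rose in ss3/ss4 at ZT2 to 756 and 1052 CPM, against 593 and 606 CPM in WT (0.59, adjusted p = 0.0056), whereas FNR2 fell to 264 and 282 CPM, against 397 and 430 CPM in WT (−0.60, adjusted p = 0.00027).

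The ATP synthase genes went different ways. ATPD, the delta subunit of its catalytic head, was at 358 and 398 CPM in pgm, 307 and 327 CPM in ss3/ss4 and 349 and 346 CPM in ss3/ss4/pgm at ZT0, against 615 and 669 CPM in WT (−0.77, −1.02 and −0.89, SE 0.11 each). At ZT2 it was at 622 and 592 CPM in pgm and 558 and 625 CPM in ss3/ss4/pgm, against 602 and 633 CPM in WT, while ss3/ss4 was still lower at 407 and 385 CPM (−0.64, adjusted p = 6.1e-05). ATPG rose in pgm at ZT0 to 953 and 1042 CPM, against 550 and 601 CPM in WT (0.79, SE 0.14), and ATPC1, at 666 and 633 CPM in pgm and 704 and 770 CPM in WT, did not pass at ZT0. At ZT2 ATPC1 was the 1 member lower in pgm, at 645 and 586 CPM, against 767 and 756 CPM in WT (−0.31, SE 0.11, adjusted p = 0.034).

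Set directly against ss3/ss4, the ss3/ss4/pgm seedlings had 19 members higher and 0 lower at ZT0, beside 8.67% and 9.72% of all genes, and 23 higher and 0 lower at ZT2, beside 12.4% and 13.6%. All 52 differences were above 0 at both times, with medians of 0.45 and 0.44 (all genes −0.019 and −0.006). At an unadjusted p under 0.05 the counts were 34 and 36 higher and 0 lower, and DESeq2 called 21 and 22 higher and 0 lower. LHCB4.3 (1.42, SE 0.22) led at ZT0 and LHCB2.3 at ZT2 (1039 and 1175 CPM in ss3/ss4/pgm, against 323 and 541 CPM in ss3/ss4, 1.36, SE 0.22). PSBQ2 rose by 0.80 at ZT0 and 0.97 at ZT2. The counts rest on single libraries: at ZT0 they were 5 without ss3/ss4 replicate 1 and 3 without ss3/ss4/pgm replicate 1, and at ZT2 they were 8 without ss3/ss4 replicate 1, 37 without ss3/ss4 replicate 2 and 8 without ss3/ss4/pgm replicate 2.

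Leaving out 1 library also moved other starch mutant counts by over 1.5 times. In pgm at ZT2 the higher members were 12 without WT replicate 1, 8 without WT replicate 2 and 4 without pgm replicate 1, while in pgm at ZT0 they stayed between 26 and 41. In ss3/ss4 at ZT0 the lower members were 6 without WT replicate 2 and 6 without ss3/ss4 replicate 1. At ZT2 in ss3/ss4 there were 15 higher and 3 lower without its replicate 1, 0 higher and 14 lower without its replicate 2, and 5 lower without WT replicate 1. In ss3/ss4/pgm the higher members were 11 without WT replicate 1 and 14 without its own replicate 1 at ZT0, and 12 without WT replicate 2 and 10 without its own replicate 2 at ZT2.

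In liquid medium, the inhibitors asked whether electron transport around the plastoquinone pool alters the module within 2 hours of the treatment. By edgeR, 0 of 52 members passed for DCMU at 22°C (beside 1.44% of all genes higher and 2.05% lower), DCMU at 27°C (2.86% and 3.62%), DBMIB at 22°C (0.557% and 1.1%) and DBMIB at 27°C (2.85% and 3.72%). At an unadjusted p under 0.05 there were 2 lower for DCMU at 22°C, 2 higher for DCMU at 27°C, 1 lower for DBMIB at 22°C and 0 for DBMIB at 27°C, and DESeq2 called 1 lower for each inhibitor at 22°C and 0 at 27°C. Mock seedlings against untreated ones gave 0 calls of members at either temperature, beside 0% of all genes, and 0 members at an unadjusted p under 0.05 and by DESeq2. The edgeR test used the spread of all liquid libraries. Between replicates, chi-square per degree of freedom was 92.8 to 221 in the inhibitor groups and 5.54 to 7.31 in mock and untreated. The 0 calls thus cannot show that the solvent had no effect.

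The replicates of each inhibitor did not resemble each other. DCMU replicate 1 at 22°C was nearest to DBMIB replicate 2 over all genes (r = 0.990), and DBMIB replicate 1 was nearest to DCMU replicate 2 (r = 0.987), against 0.889 and 0.884 between replicates of DCMU and of DBMIB. At 27°C the same crossing was seen (0.984 and 0.990, against 0.870 and 0.868). The heat shock gene HSP70 was at 15.6 and 945 TPM in DCMU and 1045 and 17.8 TPM in DBMIB at 22°C (replicates 1 and 2), against 204 and 245 TPM in mock. Samples were not reassigned from measured values, so the groups are kept as labelled, and the tests compare libraries that differ within a group.

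Library by library, all 4 inhibitor libraries at 22°C had more members below both mock libraries than above them, with 28 below and 16 above in DCMU replicate 1, 52 and 0 in DCMU replicate 2, 36 and 7 in DBMIB replicate 1, and 27 and 16 in DBMIB replicate 2. At 27°C, DCMU replicate 1 had 0 below and 49 above, DCMU replicate 2 had 46 and 0, DBMIB replicate 1 had 40 and 2, and DBMIB replicate 2 had 10 and 21. The summed LHCII level was 26321 and 9633 TPM in DCMU and 9724 and 18638 TPM in DBMIB at 27°C, against 17342 and 15998 TPM in mock. Over all genes, 40.1% to 44.5% lay above both mock libraries in these 8 libraries and 40.9% to 48.4% below. The count of members higher in DCMU at 27°C was 8 without DCMU replicate 2.

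Some markers of other cell types moved in the same libraries. The root marker EXPA7 was at 0.846 TPM in DCMU replicate 2 and 0.627 TPM in DBMIB replicate 1 at 22°C, against 4.80 and 5.78 TPM in mock, and at 0.747 and 0.632 TPM in these libraries at 27°C, against 5.65 and 3.404 TPM in mock. COBL9, another root marker, was at 0.132 TPM in DCMU replicate 2 at 22°C and was listed at 0 in DBMIB replicate 1 at both temperatures and in DCMU replicate 2 at 27°C. The epidermal marker ATML1 was at 16.8 and 20.3 TPM in DCMU replicate 2 and DBMIB replicate 1 at 22°C, against 38.5 and 33.1 TPM in mock, and at 20.6 and 22.5 TPM at 27°C, against 51.1 and 52.6 TPM in mock. The phloem marker SUC2 was at 159 and 149 TPM in DCMU replicate 2 and DBMIB replicate 1 at 22°C, against 169 and 163 TPM in mock. At 27°C SUC2 was at 132 and 137 TPM, against 136 and 125 TPM in mock. The shoot marker RBCS1A was at 5351 and 7762 TPM in these libraries at 22°C, against 7584 and 6861 TPM in mock. At 27°C RBCS1A was at 3347 and 3525 TPM, against 5033 and 4101 TPM in mock. The other shoot markers were below both mock libraries at both temperatures. CA1 was at 802 and 894 TPM at 22°C, against 1444 and 1261 TPM in mock. At 27°C CA1 was at 315 and 317 TPM, against 835 and 919 TPM in mock. RBCS3B was at 2305 and 3179 TPM at 22°C, against 3582 and 3479 TPM in mock. At 27°C RBCS3B was at 1527 and 1656 TPM, against 2898 and 2427 TPM in mock. The part of these cell types in the members' levels was not tested.

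**Figure D5:**
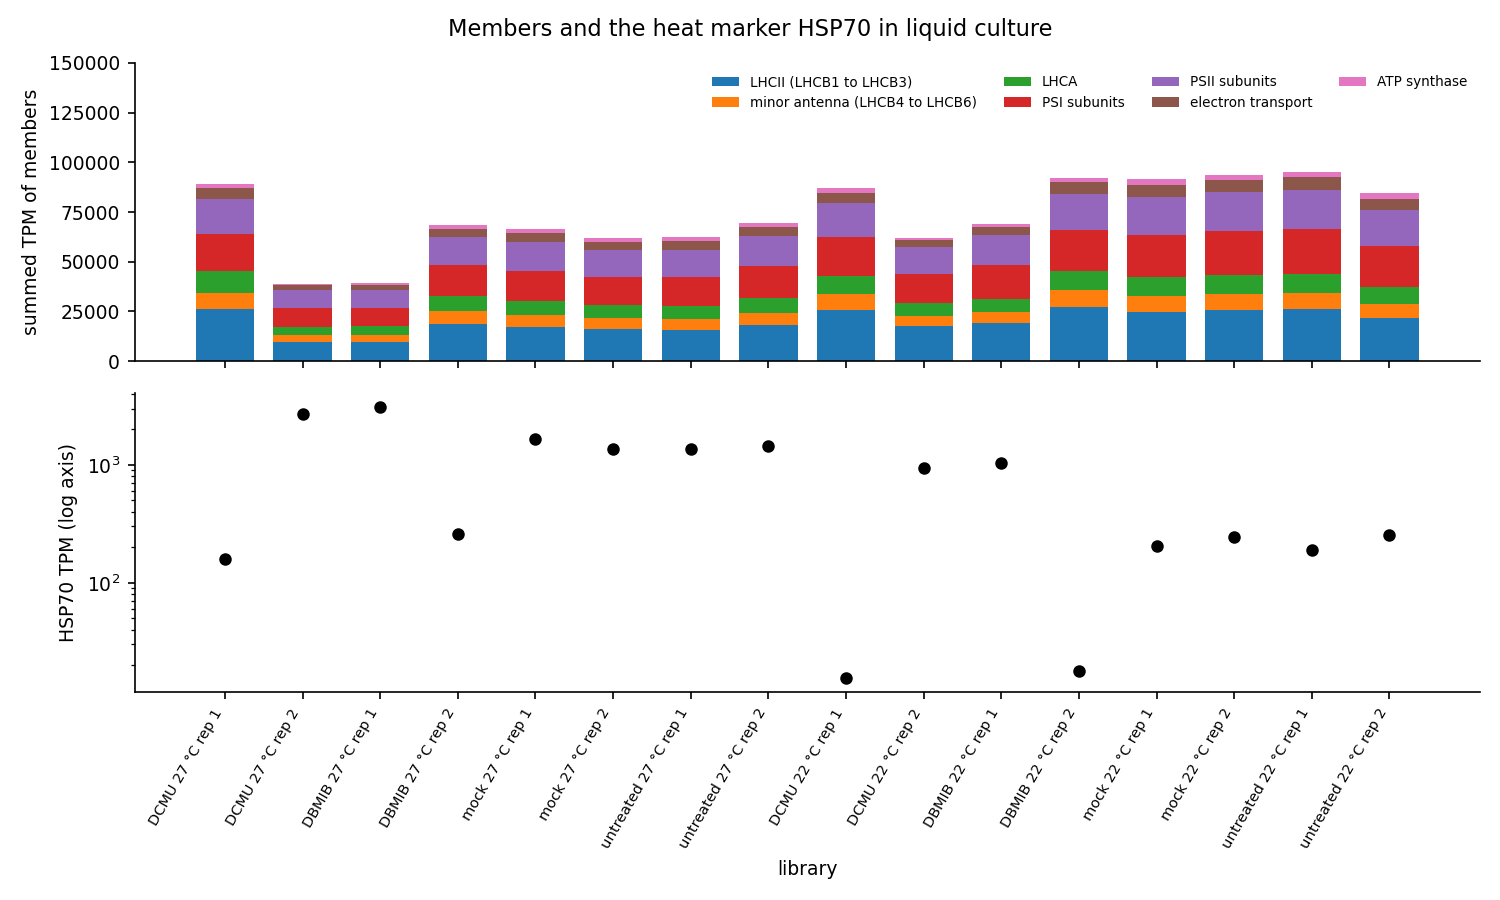
Upper panel, summed TPM of the members by class (stacked bars) in each liquid medium library at 27°C and 22°C; lower panel, TPM of HSP70 (log axis) in the same libraries. DCMU replicate 2 and DBMIB replicate 1 have the lowest bars at each temperature and the highest HSP70 of the inhibitor libraries, with 945 and 1045 TPM at 22°C.

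Against this split, some members were low in both replicates of both inhibitors at 22°C; these were picked after their values were seen. LHCB2.3 was at 273 and 213 CPM in DCMU and 192 and 294 CPM in DBMIB, against 591 and 592 CPM in mock (log2 fold changes −1.28 and −1.28, SE 0.31 each, adjusted p = 0.053 and 0.078). LHCA6 was at 34.0 and 21.4 CPM in DCMU and 17.8 and 44.8 CPM in DBMIB, against 71.1 and 59.02 CPM in mock (adjusted p = 0.39 and 0.53). LHCB4.3 was at 6.49 and 5.38 CPM in DCMU and 6.36 and 9.48 CPM in DBMIB, against 12.3 and 15.3 CPM in mock (adjusted p = 0.21 and 0.47). All 4 inhibitor libraries lay below both mock libraries for each of these genes, and none passed the test. Other members, among them LHCB2.2 and ATPD, had the same pattern at 22°C, and the share of all genes with it was not counted. The pattern did not hold in DCMU replicate 1 at 27°C. There LHCB4.3 was at 11.4 CPM, against 10.8 and 10.2 CPM in mock. LHCA6 (43.6 CPM, against 41.6 and 45.1 CPM) and LHCB2.3 (265 CPM, against 296 and 243 CPM) lay between the mock libraries. Libraries did not overlap and were lower for 28 members in DCMU at 22°C, beside 26.3% of all genes, for 22 in DBMIB at 22°C (24.7%) and for 10 in DBMIB at 27°C (25.6%). DCMU and DBMIB were used at different doses and were not compared with each other.

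The inhibitor series also allowed the growth temperatures to be compared with replicates, in untreated and mock seedlings at ZT1. With all liquid libraries in the fit, 0 members were higher and 1 was lower at 27°C, beside 1.67% of all genes higher and 1.13% lower, and 22 members were lower and 0 higher at an unadjusted p under 0.05. The call was LHCB2.3, at 259, 283, 296 and 243 CPM at 27°C (2 untreated, then 2 mock), against 501, 461, 591 and 592 CPM at 22°C (−0.98, SE 0.22, adjusted p = 0.047). It was lost when any 1 of the 8 libraries was left out. DESeq2 called 5 members lower and 0 higher.

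The direction was the same for every member. All 52 differences were below 0, with a median of −0.57, against −0.004 for all genes. In 50 of 52 members the 4 libraries at 27°C lay below the 4 at 22°C, beside 18.5% of all genes. LHCB1.3 was at 2687, 2958, 2826 and 2358 CPM at 27°C, against 6220, 3946, 5414 and 4969 CPM at 22°C, and LHCB1.1 at 1559, 1791, 1919 and 1442 CPM at 27°C, against 3295, 2365, 3308 and 3042 CPM at 22°C. PSBS had the smallest difference, with 699, 752, 794 and 725 CPM at 27°C, against 834, 798, 858 and 844 CPM at 22°C (−0.17). With the untreated and mock groups alone in the fit, which leaves out the inhibitor libraries and their spread, 50 members were lower, beside 20.6% of all genes. The shoot marker RBCS1A was at 4581, 4997, 5033 and 4101 TPM at 27°C, against 8732, 6390, 7584 and 6861 TPM at 22°C, and the epidermal marker ATML1 at 56.4, 53.6, 51.1 and 52.6 TPM at 27°C, against 36.04, 36.3, 38.5 and 33.1 TPM at 22°C. Their part in the result was not tested, and in bulk seedlings fewer cells of a type and less RNA per cell cannot be told apart. By class the medians were −0.69 in LHCII, −0.56 in the minor antenna, −0.46 in LHCA, −0.65 in photosystem I, −0.59 in photosystem II, −0.53 in the electron carriers and −0.34 in ATP synthase.

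A companion list of 23 other genes of the light reactions (assembly factors, kinases, minor carriers and the GLK regulators) was described beside the module, and none of these genes is a member. Over the day in WT at 17°C, 21 of 23 changed, beside 14198 of all 20692 genes. In pgm at ZT0, 13 rose and 2 fell, beside 5661 and 5817 of all 20130 genes. In ss3/ss4/pgm at ZT0, 13 rose and 3 fell, and the shares of all genes are those given with the members. In ss3/ss4 at ZT0, 10 rose and 2 fell, beside 6117 and 5651 of all 20130 genes. At ZT2, 11 rose and 6 fell, beside 5345 and 5518, so the falls were near the share of all genes. In the libraries labelled ss4-1, 6 rose over the day and 1, GLK1, fell (−0.18, adjusted p = 0.047), beside 1378 and 1631 of all 20692 genes.

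GLK1, an activator of LHCB genes, passed in some of these contrasts and not in others. It is given in TPM, with log2 fold changes from counts scaled with TMM factors, and these need not match. It was at 99.1 and 84.5 TPM in ss4-1 and 60.03 and 60.9 TPM in ss3/ss4 at ZT2, against 160.5 and 177 TPM in WT (log2 fold changes −0.75 and −1.42, adjusted p = 0.025 in ss4-1). At ZT0 it was at 16.5 and 17.3 TPM in pgm and 15.8 and 18.3 TPM in ss3/ss4/pgm, against 39.4 and 43.0 TPM in WT (−0.81 and −0.96), in seedlings where most LHCB members were higher relative to the bulk of genes. In liquid medium at 22°C it was at 50.7 and 68.4 TPM in DCMU and 58.7 and 58.0 TPM in DBMIB, against 132 and 131 TPM in mock (−0.996 and −0.99, adjusted p = 0.027 and 0.041). At 27°C it was at 47.1 and 52.4 TPM in DCMU and 39.6 and 48.7 TPM in DBMIB, against 102 and 114 TPM in mock (−0.84 and −1.07, adjusted p = 0.035 and 0.013). GLK1 was the 1 companion that passed in each inhibitor comparison, and both replicates of each inhibitor were below both mock libraries although these replicates differ over most genes. In the other starch mutant comparisons with WT its CPM overlapped those of WT and it did not pass (−0.03 in ss3/ss4 at ZT0, −0.07 in pgm and −0.09 in ss3/ss4/pgm at ZT2). Against ss3/ss4 it was lower in ss3/ss4/pgm at ZT0 (−0.92) and higher at ZT2 (1.33), both past the threshold. In ss4-1, ZT2 was the only one of the 8 times at which it passed. GLK2, the other GLK regulator, was lower in ss3/ss4 than in WT at ZT2 (−0.69, adjusted p = 1.4e-05 by edgeR). It did not pass at ZT0 in pgm (0.17) or ss3/ss4/pgm (−0.038), nor at ZT2 in ss4-1 (−0.35). In every inhibitor comparison its libraries overlapped those of mock and it did not pass. These were −0.35 and −0.41 for DCMU and DBMIB at 22°C, and −0.10 and −0.36 at 27°C. The part of GLK1 and GLK2 in the members' levels was not tested.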

How the data were processed

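RNA sequencing was carried out on 76 libraries of Arabidopsis seedlings. For 60 libraries the authors deposited raw counts per gene together with TPM and FPKM, and for the WT time courses at 22°C and 27°C they deposited TPM only; the deposited TPM were used as levels, the counts for tests, and the FPKM not at all. The submitters' processing notes name FastQC, Trimmomatic, TopHat, Picard and genome TAIR10. The counting program and its handling of strand are not given in the sources used here, so reads of overlapping genes on opposite strands may be mixed (17 members overlap such a gene). Times listed as ZT-12 and ZT-8 in the 22°C and 27°C table were read as ZT12 and ZT16.

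Counts were tested with edgeR 4.0.16 (R 4.3.3) by the quasi-likelihood test with TMM factors, low counts removed by group, and Benjamini-Hochberg adjustment over all genes tested, in 3 fits: WT and ss4-1 at 17°C (32 libraries, 20692 genes), WT and starch mutants at ZT0 and ZT2 (16 libraries, 20130 genes) and liquid medium (16 libraries, 20291 genes). CPM are those of each fit, so WT values differ between fits. The TPM at 27°C and 22°C were tested with limma 3.58.1 on log2(TPM + 1) with time as a block, for genes at 1 TPM or more in at least 8 libraries; these log2 differences understate the change of low genes. An exact test of 2 libraries against 2 cannot go below p = 0.333. Outside the comparisons of ss4-1 with WT, most counts at an unadjusted p under 0.05 are given without the share of all genes. The same holds for the DESeq2 counts. The edgeR and limma scripts were tested on simulated data with known changes for some of the comparisons, which checks the code and not the calibration of every test. Replicates differed by more than sampling noise in every group (chi-square per degree of freedom 2.75 to 221), and all libraries were kept.

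The members and the gene lists were chosen with earlier results of these data known. All 52 members were named by the list; per-library values follow the fixed rule (isoform pairs, LHCB4 and LHCA genes, and the up to 3 largest rises and falls past the threshold without overlap in set comparisons), and other genes given with values, among them the LHCB2 genes at ZT12, were chosen after their values were seen. Alternatives were DESeq2 1.42.0 and its size factors, other filters, fits of the compared groups alone, a replicate block, each library left out, a pseudocount of 0.1 and a shorter promoter window. Library totals without TMM, removal of organelle and rRNA genes, and single inhibitor replicates were added after seeing the data. Sequences and promoters come from the RefSeq annotation of TAIR10.1.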

Additional observations from a re-analysis of the deposited data

Results flagged for a closer look

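The ss4-1 difference depended on the time of day for LHCB2.1 (adjusted p = 0.00048), LHCB2.2 (0.015) and LHCB2.3 (0.048) in the edgeR test of the interaction. These genes were lower in ss4-1 at ZT12 and overlapped or lay near WT in the light.

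In some members both replicates moved one way in one condition and the other way in a second, and these differences were not tested. LHCA5 was at 221 and 241 CPM in pgm at ZT0, against 143 and 169 CPM in WT (log2 fold change 0.56), and at 141 and 140 CPM in pgm at ZT2, against 152 and 154 CPM in WT (−0.12). In ss3/ss4/pgm LHCA5 was at 200 and 197 CPM at ZT0 (0.35) and 139 and 150 CPM at ZT2 (−0.084). PSAD1 was at 682 and 599 CPM in ss3/ss4/pgm at ZT0, against 780 and 846 CPM in WT (−0.34), and at 865 and 1050 CPM in ss3/ss4/pgm at ZT2, against 795 and 773 CPM in WT (0.29). FNR1 was higher in mock than in untreated seedlings at 22°C (0.11) and lower at 27°C (−0.058).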

How the results depend on the processing

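Counts below are members called. With no filter on low counts there were 2 higher at ZT2 in WT, 3 lower in ss4-1 over the day, 10 that depended on time, 20 higher at ZT4 and 7 and 2 lower at ZT12 and ZT16 in ss4-1, 0 lower in pgm at ZT2, 8 higher in ss3/ss4 at each time, 35 and 37 higher in ss3/ss4/pgm against ss3/ss4, and 0 lower at 27°C in liquid medium. With only the compared groups in the fit there were 2 higher and 12 lower at ZT2 in WT, 0 in ss4-1 at ZT4 and at ZT12, 0 lower in pgm and 1 lower in ss3/ss4/pgm at ZT2, and 50 lower in liquid medium. DESeq2 gave 18 higher in ss4-1 at ZT4, 1 lower at ZT16, 5 higher in ss3/ss4 at ZT2, 1 lower for each inhibitor at 22°C and 5 lower in liquid medium. With library totals there were 23 higher and 7 lower in pgm at ZT0, 2 lower at ZT2, 0 higher and 24 lower in ss3/ss4 at ZT0, 6 higher at ZT2, 8 higher and 9 lower in ss3/ss4/pgm at ZT0, 2 lower at ZT2 and 0 in liquid medium; PSBS (−0.11) and PSAG (−0.00386) in pgm and PSAD2 (−0.00352) in ss3/ss4/pgm at ZT0 then changed sign. DESeq2 size factors gave 0 lower in pgm at ZT2, 1 higher in ss3/ss4 at ZT0 and 1 lower for DCMU at 22°C. A minimum of 10 counts gave 0 higher in ss3/ss4 at ZT0 and 1 lower for DCMU at 22°C, and removal of organelle and rRNA genes gave 1 lower for DCMU at 22°C. The causes were not tested. The I-box share was 25.0% in the shorter window.

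Leaving out 1 library gave 40 to 50 members for the WT day, 1 to 1 higher and 5 to 6 lower at ZT2, and 1 to 1 and 7 to 21 at ZT8. In ss4-1 it gave 6 to 13 higher and 1 to 1 lower over the day, 1 to 9 by time, 0 to 5 higher at ZT4 and 1 to 16 lower at ZT12. It gave 26 to 41 higher and 2 to 2 lower in pgm at ZT0, 4 to 29 and 0 to 1 at ZT2, 0 to 4 and 6 to 14 in ss3/ss4 at ZT0, 0 to 15 and 3 to 14 at ZT2, 11 to 24 and 2 to 5 in ss3/ss4/pgm at ZT0, 10 to 28 higher at ZT2, and 3 to 22 and 8 to 37 higher against ss3/ss4. It gave 0 to 8 higher for DCMU at 27°C, 0 to 0 lower in liquid medium and 5 to 18 lower at 27°C over the day (leaving out times).

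Replicate numbers did not pair the samples in the time course and the starch mutants. Deviations of same-numbered libraries correlated there at −0.147 to 0.218 and at −0.109 to 0.182. In liquid medium the range was −0.886 to 0.882, with 12 of 28 pairs of groups over 0.1, so replicate number was not without structure there. With the replicate block 0 members were lower in liquid medium, and the other counts stayed within 1.5 times. With 2 libraries a group, depth and replicate number limit what can be called.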
